A study of Mus musculus with 6 samples.

Results

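Thyroglobulin (Tg), the thyrotropin receptor (Tshr), the dual oxidase Duox1, the dual oxidase maturation factor Duoxa2 and type 1 deiodinase (Dio1) were followed in thyroid lobes of mice after deletion of Foxe1. They are the hormone synthesis genes outside iodide transport that were listed for measurement. The list was drawn up with earlier results of these data known. All 5 were found, each by 1 probe set, among 19505 genes named on the arrays. The series holds 6 arrays, each from 1 lobe of 1 mouse of C57BL/6J background. The 3 controls are labelled Cre control and the 3 knockouts Foxe1flox/flox/Cre, so both groups carry Cre, and only the knockouts have both Foxe1 alleles floxed. Both groups were given tamoxifen at 0.05 g/kg into the peritoneum daily on 5 days, starting at 6 to 8 weeks of age, and the gland was taken 2 weeks later. Tamoxifen switches the recombinase on. The sources used here name neither the promoter that drives Cre nor the sex of the mice.

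A thyroid follicle makes its hormone on thyroglobulin, a very large glycoprotein that the follicular cell secretes into the lumen. Thyrotropin, acting through its receptor on the basal membrane, raises cyclic AMP and drives nearly every step. At the apical membrane, dual oxidases make the hydrogen peroxide that is needed to attach iodine to tyrosines of thyroglobulin and to couple them. Each dual oxidase needs a maturation factor to leave the endoplasmic reticulum, Duoxa1 for Duox1 and Duoxa2 for Duox2. Type 1 deiodinase, a selenoprotein, removes an outer ring iodine from thyroxine to give the active hormone, in the thyroid as in liver and kidney. Foxe1 is a forkhead factor of the follicular cell, and the thyroglobulin promoter is a classical target. The comparison asks what these transcripts do when the adult gland loses that factor.

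Promoter sequence is shown because the deleted gene encodes a DNA-binding factor and because Duoxa2 and Duox1, which lie on chromosome 2 with only Duoxa1 between them among protein-coding genes, differed in opposite directions on average. RefSeq's table for GRCm38.p6 held windows for 3 of the 5 genes, Duox1, Duoxa2 and Dio1. Tg and Tshr had none. The windows give the 250 bases before the start site, 5′ to 3′ on the strand of the gene. Duox1 lies at chr2:122315422-122315671 (plus strand), Duoxa2 at chr2:122298650-122298899 (plus strand) and Dio1 at chr4:107307169-107307418 (minus strand). Capitals mark the forkhead core AAACA read on either strand, where TGTTT is its reverse complement.
Duox1: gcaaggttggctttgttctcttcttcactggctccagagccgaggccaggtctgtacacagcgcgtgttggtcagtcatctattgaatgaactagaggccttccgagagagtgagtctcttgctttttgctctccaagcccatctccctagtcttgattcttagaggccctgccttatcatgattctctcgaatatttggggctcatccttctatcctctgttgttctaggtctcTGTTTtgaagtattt
Duoxa2: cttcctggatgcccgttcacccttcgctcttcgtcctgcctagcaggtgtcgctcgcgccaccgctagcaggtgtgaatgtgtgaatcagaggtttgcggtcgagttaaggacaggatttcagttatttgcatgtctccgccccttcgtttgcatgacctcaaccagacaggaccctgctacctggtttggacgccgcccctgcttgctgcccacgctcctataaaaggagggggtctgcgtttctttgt
Dio1: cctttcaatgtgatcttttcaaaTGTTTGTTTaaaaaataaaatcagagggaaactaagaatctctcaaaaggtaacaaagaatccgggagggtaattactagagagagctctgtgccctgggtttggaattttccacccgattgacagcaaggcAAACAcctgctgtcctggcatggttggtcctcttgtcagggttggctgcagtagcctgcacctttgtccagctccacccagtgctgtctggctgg

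Dio1 held 3 matches to the core, which began 227, 223 and 95 bases before the start site, the first pair overlapping by 1 base. Duox1 held 1 match, 15 bases before its start site, and Duoxa2 held 0. Of 32851 RefSeq windows of this length, 46.4% contain AAACA on a strand, so a match is common. The longer forkhead word GTAAACA, which contains the core and occurs in 3.17% of windows, was in 0 of the 3. Duoxa2 alone of the 3 had TATAAA (12.4% of windows), 30 bases before its start site. No match was found in the 3 windows for CAAGTG (11.6% of windows) or CTCAAG (13.3%), forms of the NKX2-1 site, or for the cyclic AMP response element TGACGTCA (1.55%) or its part TGACG (17.8%), which the full element contains. Both strands were searched for every word. These are letters in a window and not measured sites.

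Across the 5 genes the lobes without Foxe1 did not show a common fall. Tshr and Duox1 read higher on all 3 knockout arrays than on any control, Dio1 had a higher mean without separated groups, Tg had nearly equal means, and Duoxa2 had a lower mean. None of the 5 passed limma at an adjusted p of 0.05 over all 22206 probe sets, where 75 probe sets, 0.338%, did (56 higher and 19 lower, or 106 and 425 with each array set relative to its follicular markers, which shifts the median of all probe sets to -0.43). Tshr and Duox1 had an unadjusted limma p under 0.05, as had 12.7% of all probe sets, and 0 of the 5 had one by the ordinary t statistic. All 3 knockouts stood above all 3 controls for 2 of the 5 genes, against 9.28% of all probe sets. All 3 stood below for 0 of the 5, against 8.78%. Values are log2 RMA expression values, so a difference of 1 is a 2-fold change. In whole lobes, more or fewer follicular cells and more or less transcript per cell cannot be told apart.

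**Figure D1:**
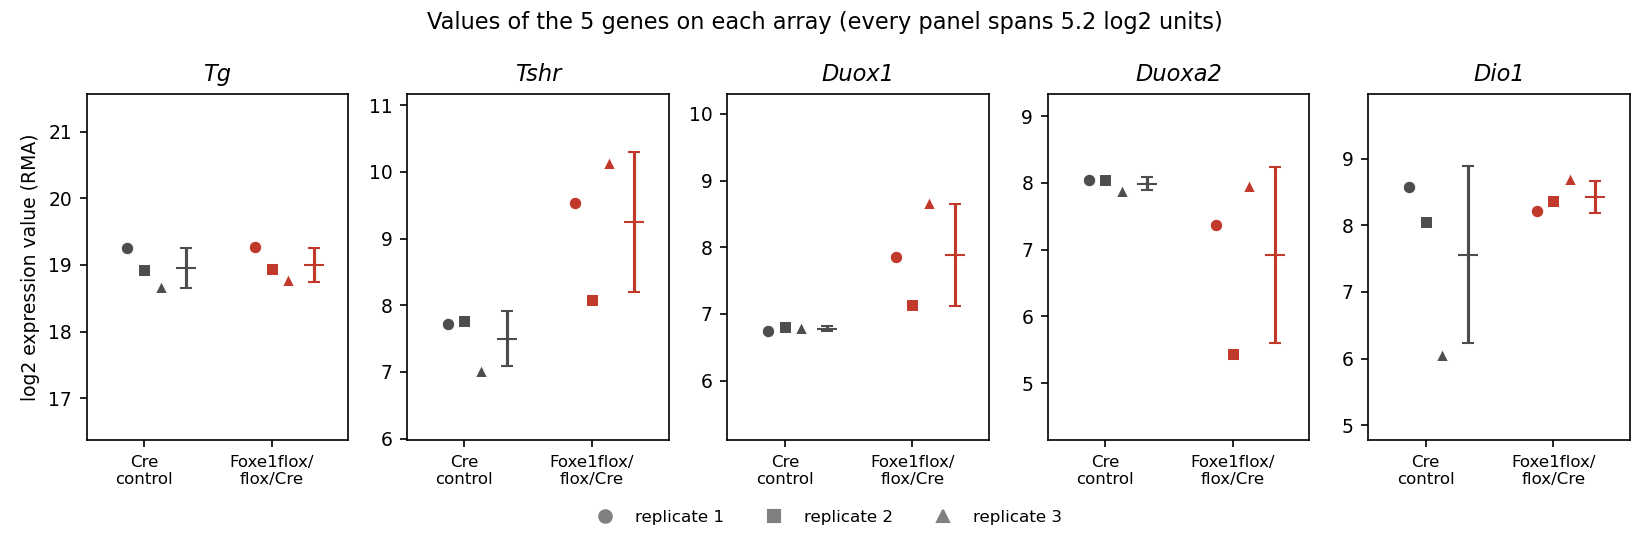
Log2 expression value of each gene on each array, with Cre controls in grey, Foxe1flox/flox/Cre knockouts in red, a symbol for each replicate number, and the mean with SD (n = 3) to the right of each group; every panel spans the same log2 range. Tshr and Duox1 knockouts all lie above their controls, knockout 2 is the lowest knockout for Tshr, Duox1 and Duoxa2, and control 3 stands low for Dio1 at 6.06.

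Thyroglobulin, the substrate, stood near the top of the scale on every array. Control values were 19.26, 18.93 and 18.67, and knockout values 19.27, 18.94 and 18.78. The groups overlapped almost completely, and their highest and middle readings nearly coincided. The means were 18.95 ± 0.30 and 19.00 ± 0.25 (SD, n = 3 each), a difference of 0.04 (SE 0.22, limma adjusted p = 0.962). The 95% interval, -0.47 to 0.55, spans 0.724-fold to 1.47-fold. The highest value of any probe set was 19.93. Whether readings this near the top of the scale follow a change in transcript in full was not tested, so the interval holds for the array values. The sign of this difference is not settled: it was -0.37 when each array was set relative to its follicular markers, and -0.098 without control 3 and -0.093 without knockout 1.

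The thyrotropin receptor, the gland's main hormonal input, had the largest difference of the 5. Tshr values were 7.72, 7.76 and 7.02 on control arrays against 9.53, 8.08 and 10.13 on knockout arrays. All knockouts were above all controls, by a gap of 0.32 between knockout 2 and control 2. The mean went from 7.5 ± 0.42 to 9.25 ± 1.05 (SD, n = 3 each). The difference was 1.75 (SE 0.47, 95% interval 0.67 to 2.82), 3.36-fold, with a limma adjusted p of 0.167. A larger size of difference was seen for 0.68% of probe sets. Knockouts spread over 2.05 log2 units and controls over 0.74, and without 1 array the difference ran from 1.30 without knockout 3 (adjusted p = 0.391) to 2.33 without knockout 2 (adjusted p = 0.0657). With the mean of the parathyroid markers as a covariate it was 1.10 (adjusted p = 0.733).

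Of the peroxide system, Duox1 read higher and Duoxa2, the maturation factor for Duox2, lower on average, neither past the threshold. Duox1 read 6.74, 6.81 and 6.79 in the controls, a range of only 0.07, and 7.86, 7.14 and 8.67 in the knockouts. Every knockout was above every control, knockout 2 least so, with a gap of 0.33. The difference was 1.11 (SE 0.34, 95% interval 0.33 to 1.89, limma adjusted p = 0.216), 2.16-fold on means of 6.78 ± 0.04 and 7.89 ± 0.77 (SD, n = 3 each). Without 1 array it ran from 0.72 without knockout 3 (adjusted p = 0.409) to 1.49 without knockout 2 (adjusted p = 0.12), and with the parathyroid covariate it was 0.70 (adjusted p = 0.783).

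Duoxa2, which carries Duox2 to the cell surface, read 8.05, 8.04 and 7.88 in the controls, a range of 0.17. The knockouts read 7.37, 5.43 and 7.96, so knockouts 1 and 2 lay below every control and knockout 3 lay among them. Knockout 2 made most of the difference of -1.07 (SE 0.54, 95% interval -2.31 to 0.17, limma adjusted p = 0.464), and without it the value was -0.33. The means were 7.99 ± 0.10 and 6.92 ± 1.32 (SD, n = 3 each). With the parathyroid covariate the difference was -2.06 (adjusted p = 0.505). Its usual partner Duox2 and the other maturation factor Duoxa1 are not analysed here.

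Type 1 deiodinase turned on a single control. Dio1 values were 8.57, 8.05 and 6.06 on control arrays against 8.21, 8.37 and 8.69 on knockout arrays. Controls 1 and 2 lay within or next to the knockout range, and control 3, well below every other array, set the control range of 2.51. The means of 7.56 ± 1.32 and 8.42 ± 0.24 (SD, n = 3 each) differed by 0.86 (SE 0.55, 95% interval -0.39 to 2.12, limma adjusted p = 0.572). Without control 3 the difference was 0.11, and without control 1 it was 1.37 (adjusted p = 0.374). With the mean of the airway markers as a covariate it was 2.16 (adjusted p = 0.686). Airway markers were lower in the knockouts without overlap of their sums, so that fit cannot tell them from genotype. Of the other deiodinases, Dio2, which also makes active hormone, averaged 5.76 ± 0.13 in controls against 5.63 ± 0.25, and Dio3, which inactivates it, 3.30 ± 0.45 against 2.94 ± 0.20 (SD, 3 arrays a group). Their limma adjusted p were 0.845 and 0.611.

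Y-linked genes were read as a check, since both sexes could be present. Control 1 and knockout 3 had no Y-linked signal (means of 3.04 and 2.65 over 3 Y-linked genes), and the other 4 arrays had it (8.03 to 8.30). Within the 4 arrays with signal, 2 in each group, the difference was 1.42 for Tshr, 0.70 for Duox1, 1.23 for Dio1, 0.30 for Tg and -1.56 for Duoxa2. Between the 2 arrays without it, 1 in each group, it was 2.41 for Tshr, 1.93 for Duox1, 0.12 for Dio1, -0.48 for Tg and -0.09 for Duoxa2. Tg changed sign between the sets, while for Tshr and Duox1, whose groups do not overlap, any such split gives a positive difference. The interaction of genotype with Y-linked signal had limma adjusted p between 0.391 (Duox1) and 0.718 (Dio1) for the 5 genes, on 2 residual degrees of freedom. The term rests on 1 array in each group without the signal.

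**Figure D2:**
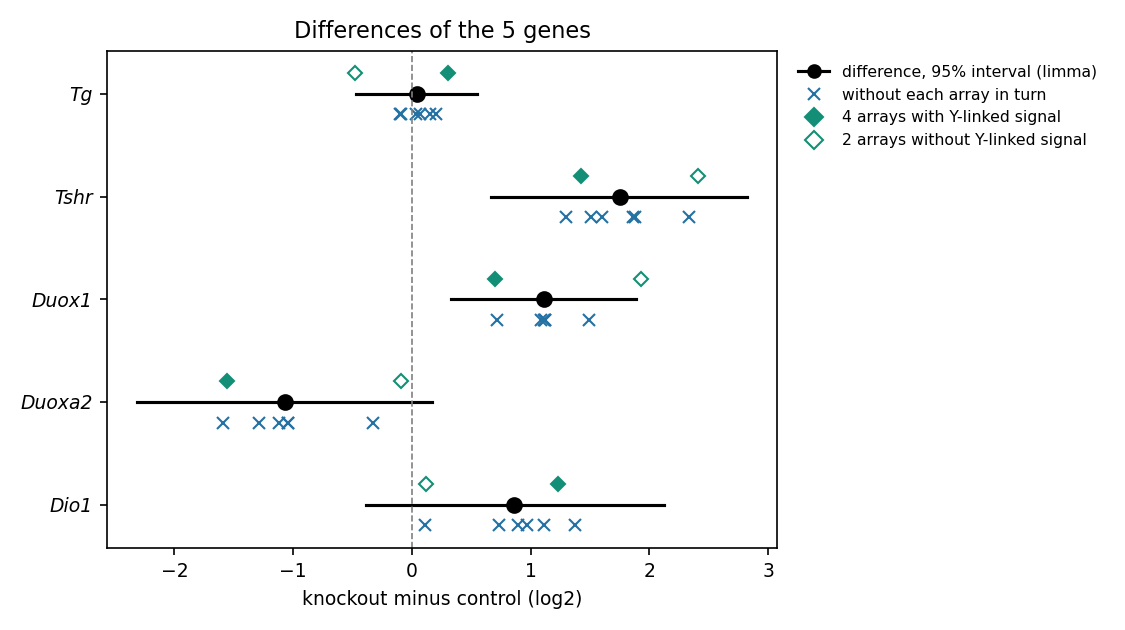
Knockout minus control on the log2 axis for each gene, with black points and bars for the difference and its 95% limma interval, crosses for the fits without each array in turn, and diamonds for arrays with (filled) and without (open) Y-linked signal. The Tg values lie on both sides of 0, and the Tshr and Duox1 intervals lie to the right of it.

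Setting the genes against each other within an array removes whatever scales all transcripts of an array alike. The level of one probe set says nothing against that of another, so only the change of such a difference between groups was read. Of the 10 pairs, 5 had all knockouts on one side of all controls. The pairs share genes and are not independent, and the share among all pairs of genes on the arrays was not computed. Tshr minus Duoxa2 moved most, from -0.33, -0.28 and -0.86 in the controls to 2.16, 2.65 and 2.17 in the knockouts. This pair was also steady within groups, at -0.49 ± 0.32 and 2.33 ± 0.28 (SD, n = 3 each), a change of 2.82, although Tshr alone had an SD of 1.05 and Duoxa2 alone an SD of 1.32 among the knockouts. In the knockouts the arrays thus kept 1 order for both genes, knockout 3 highest and knockout 2 lowest, with an almost constant distance between them.

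Duox1 minus Duoxa2 went from -1.31, -1.23 and -1.09 to 0.49, 1.71 and 0.71, a change of 2.18 with no overlap. The other separated pairs were Tg against Tshr (a change of -1.70), Tg against Duox1 (-1.07) and Duoxa2 against Dio1 (-1.93). As Tg itself differed by 0.04, its pairs largely restate the differences of Tshr and Duox1. Duoxa2 minus Dio1 was barely separated and spread widely, at -0.52, -0.01 and 1.82 in controls and -0.84, -2.94 and -0.73 in knockouts. Its extremes were control 3, the low array for Dio1, and knockout 2, the low array for Duoxa2. Tshr minus Duox1 overlapped, with means of 0.72 ± 0.42 and 1.36 ± 0.38 (SD, n = 3 each). In an exact two-sided permutation test over the 6 arrays each of the 5 separated pairs had p = 0.1, the smallest that 3 against 3 can give, and 0.2 after Benjamini-Hochberg adjustment over the 10 pairs.

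**Figure D3:**
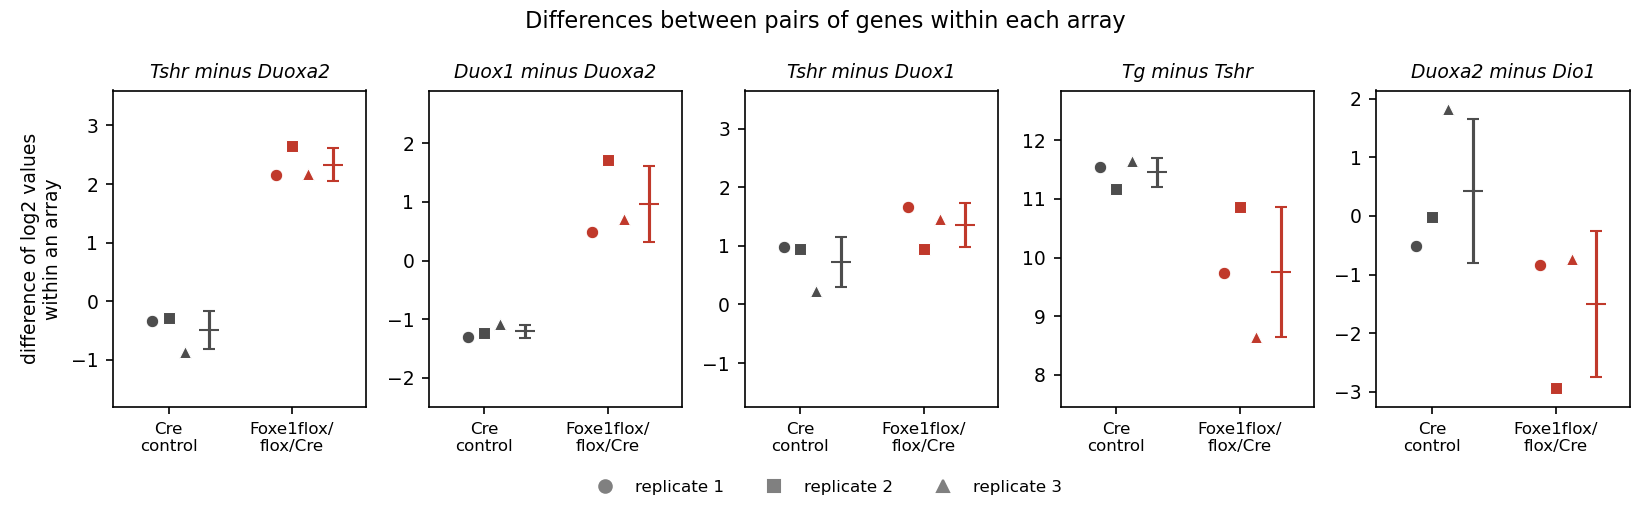
Difference of log2 values between the named genes within each array, for 5 of the 10 pairs, with controls in grey, knockouts in red, a symbol for each replicate number and the mean with SD (n = 3) beside each group; every panel spans the same log2 range. Tshr minus Duoxa2 is tight in both groups and moves by 2.82, and Tshr minus Duox1 overlaps.

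Other genes with a like pattern were sought among 18526 genes by the root mean square distance between profiles over the 6 arrays, each centred on its own mean, in log2 units. For Tshr the nearest were Scube2 (0.30), which encodes a secreted protein that releases hedgehog ligands, Gsdmc (0.34), a gasdermin, and Aqp6 (0.40), an aquaporin. Scube2 differed by 1.99 (limma adjusted p = 0.0737). Nearest to Duox1 were Cysrt1 (0.10), Serpinb3d (0.17), a serine protease inhibitor gene, and Itpkc (0.17), an inositol trisphosphate kinase. Cysrt1 followed Duox1 on every array, at 10.55, 10.78 and 10.50 in controls and 11.73, 11.13 and 12.44 in knockouts. Which cell type of the lobe gave these like profiles was not tested.

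Dio1 was nearest to Slc26a7 (0.33), an anion transporter through which the follicular cell is held to release iodide, then to Ppp1r1b (0.35), a phosphatase regulator, and Slc26a10 (0.37). Slc26a7 shared the low control 3, at 12.48 against 14.64 and 14.36 in the other controls. Tg was nearest to Ptpn11 (0.04), Apol11b (0.05) and Pank2 (0.06), which differed between groups by 0.06, -0.02 and 0.10. Like Tg, each fell from replicate 1 to replicate 3 in both groups. For Duoxa2 no gene came close: Capn5, Bbox1 and Ccdc17 were at 0.47, and 252 genes lay within 1.5 times that distance. All are likenesses over 6 arrays that share the 2 groups.

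Control 3 was low for other genes of the follicular cell as well. Pax8, a factor that activates Tg, read 12.12, 12.10 and 10.42 in controls and 13.37, 13.08 and 12.75 in knockouts. Cdh16, a thyroid and kidney cadherin, read 9.65, 8.93 and 7.59 against 10.71, 10.70 and 10.40. For both, control 3 was the lowest array and all knockouts were above all controls, with differences of 1.52 and 1.88 (limma adjusted p of 0.183 and 0.132). Of the 9 follicular epithelium markers 1 passed, Hhex, a homeobox factor (2.46, limma adjusted p = 0.0273), and 5 had an unadjusted p under 0.05. Over all probe sets the shares were 0.338% and 12.7%. Without 1 array the Hhex difference was 2.29 to 2.77 and its call was lost in all 6 fits (adjusted p of 0.0591 to 0.107). Nkx2-1, the factor shared with lung, differed by 0.73 (adjusted p = 0.528).

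General epithelial markers were mixed. Krt7, a simple epithelial keratin, read 12.98, 12.97 and 12.97 in controls and 11.35, 9.68 and 11.78 in knockouts, lowest in knockout 2 like Duoxa2. Its difference was -2.04 (limma adjusted p = 0.122). Krt18 differed by -0.82, Krt8 by -0.17, Epcam by -0.14 and Cdh1 by 0.26. Cdh1 shared the low control 3 and had all knockouts above all controls, and control 3 was the lowest array for Epcam and Krt8 as well. The summed level of the 9 markers, carried by Cdh1, lay between 16.05 and 16.35 on the controls and between 16.30 and 16.66 on the knockouts (log2 of the sum). Relative to their mean the difference was 1.34 for Tshr, 0.70 for Duox1, 0.45 for Dio1 and -1.48 for Duoxa2. On that scale Duoxa2 passed the limma threshold (adjusted p = 0.022) and Tshr did not (adjusted p = 0.0502). In that fit 531 of 22206 probe sets passed, 425 of them lower, and the median of all probe sets was shifted to -0.43.

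Iodide transport genes, the other arm of hormone synthesis, had 8 positive differences of 8 measured. By limma 0 passed the threshold and 3 had an unadjusted p under 0.05, against 0.338% and 12.7% of all probe sets. Their median difference was 0.38, where the median over all probe sets was -0.02. All 3 knockouts were above all controls for 4 of the 8, against 9.28% of all probe sets. Of the 8 genes 2 stood below the lower quartile of the arrays. They are Slc26a4, which is among the 4, and Kcne2, with control means of 2.46 and 2.93. Slc5a5, the sodium iodide symporter, differed by 4.83, but control 3 read 2.97, below the lower quartile of the arrays, and without it the difference was 3.15. Iyd, which recycles iodide from unused tyrosines, differed by 2.10 and Slc5a8, a monocarboxylate transporter once called the apical iodide transporter, by 0.79. Their limma adjusted p were 0.136 and 0.264, and that of Slc5a5 was 0.14 over all arrays.

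The ordinary t statistic called 0 probe sets in the whole table after adjustment, so counts of calls here and in the lists that follow are limma's. Beside these counts, 0.338% of all probe sets passed and 12.7% had an unadjusted p under 0.05. Downstream of the receptor, 0 of 19 measured signalling genes passed (1 at an unadjusted p under 0.05), 7 with positive and 12 with negative differences (median -0.12). Gnas, the stimulatory G protein subunit that couples the receptor to adenylyl cyclase, read 15.47, 15.67 and 14.86 in controls and 14.52, 14.90 and 14.17 in knockouts, overlapping at 1 pair of arrays, with a difference of -0.80 (limma adjusted p = 0.261). Rapgef3, an exchange factor activated by cyclic AMP, differed by -0.43 and the phospholipase Plcb3 by 0.42. The adenylyl cyclases Adcy3, Adcy6 and Adcy9 differed by 0.12, -0.06 and -0.37.

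Among receptors related to Tshr 1 of 6 measured passed. Lgr6, an R-spondin receptor with the same leucine-rich architecture, fell by 1.80 (limma adjusted p = 0.0371). Without 1 array its difference was -2.07 to -1.60, with adjusted p of 0.0513 to 0.138, so the call was lost in all 6 fits. Lgr4 differed by -0.29, Rxfp2 by 0.13 and the follicle-stimulating hormone receptor Fshr by 0.04, the last pair near or below the lower quartile of the arrays. In the NADPH oxidase family to which Duox1 belongs, 0 of 9 passed (1 unadjusted, median 0.14). Cybb, the phagocyte oxidase, differed by -0.50, its partner subunit Cyba by 0.47 and Nox1 by 0.36 from a control mean of 2.62. Cyba had all knockouts above all controls (limma adjusted p = 0.356).

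Thyroglobulin is folded in the endoplasmic reticulum before export, and 0 of 15 measured folding genes passed (3 unadjusted, median 0.07). All knockouts were above all controls for 4 and below for 1, against 9.28% and 8.78% of all probe sets. Ero1b, which oxidises protein disulfide isomerases, read 10.26, 9.72 and 8.67 in controls and 11.53, 10.98 and 11.55 in knockouts. Its difference was 1.80 (SE 0.38, limma adjusted p = 0.098), larger than that of any other gene on this list. Ero1a, its relative, differed by 0.78 and P4hb, a protein disulfide isomerase, by 0.69, both without overlap (adjusted p of 0.254 and 0.199). The chaperones that bind nascent thyroglobulin overlapped: Hspa5 differed by -0.08, Hsp90b1 by -0.09, Canx by -0.03 and Calr by 0.17.

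Hormone is freed when the cell takes thyroglobulin back and digests it, and 0 of 11 genes of that step passed (1 unadjusted, median -0.11). Asgr1, a lectin receptor that can bind thyroglobulin, read 8.61, 7.33 and 7.10 in controls and 5.81, 6.06 and 6.47 in knockouts, a difference of -1.57 without overlap (limma adjusted p = 0.14). The proteases Ctsk, Lgmn, Ctsl and Ctsb differed by -0.56, -0.30, -0.11 and 0.14, and Lrp2, the megalin receptor, by 0.06. Of 7 hormone transporters 0 passed (1 unadjusted, median -0.11). The amino acid carriers Slc7a8 and Slc7a5 differed by -0.92 and 0.22, and Slc16a10 by -0.74 with all knockouts below all controls (adjusted p = 0.183).

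The list of other selenoproteins and of selenocysteine insertion, a step Dio1 needs, had 0 of 13 genes past the threshold (2 unadjusted, median 0.04). Selenop, the selenium transport protein, differed by -0.76 and the elongation factor Eefsec by -0.44, both with all knockouts below all controls, and Secisbp2, which binds the insertion element, by 0.49 (limma adjusted p of 0.28, 0.355 and 0.41). Of 8 hormone receptor and response genes 0 passed (1 unadjusted, median -0.18). Mbp, a myelin gene, differed by -1.33 without overlap, Thrsp, a lipogenic gene, by -0.91 and Klf9 by -0.54, with adjusted p of 0.183, 0.499 and 0.447 by limma. The hormone receptors Thra and Thrb had differences of -0.06 and -0.22.

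**Figure D4:**
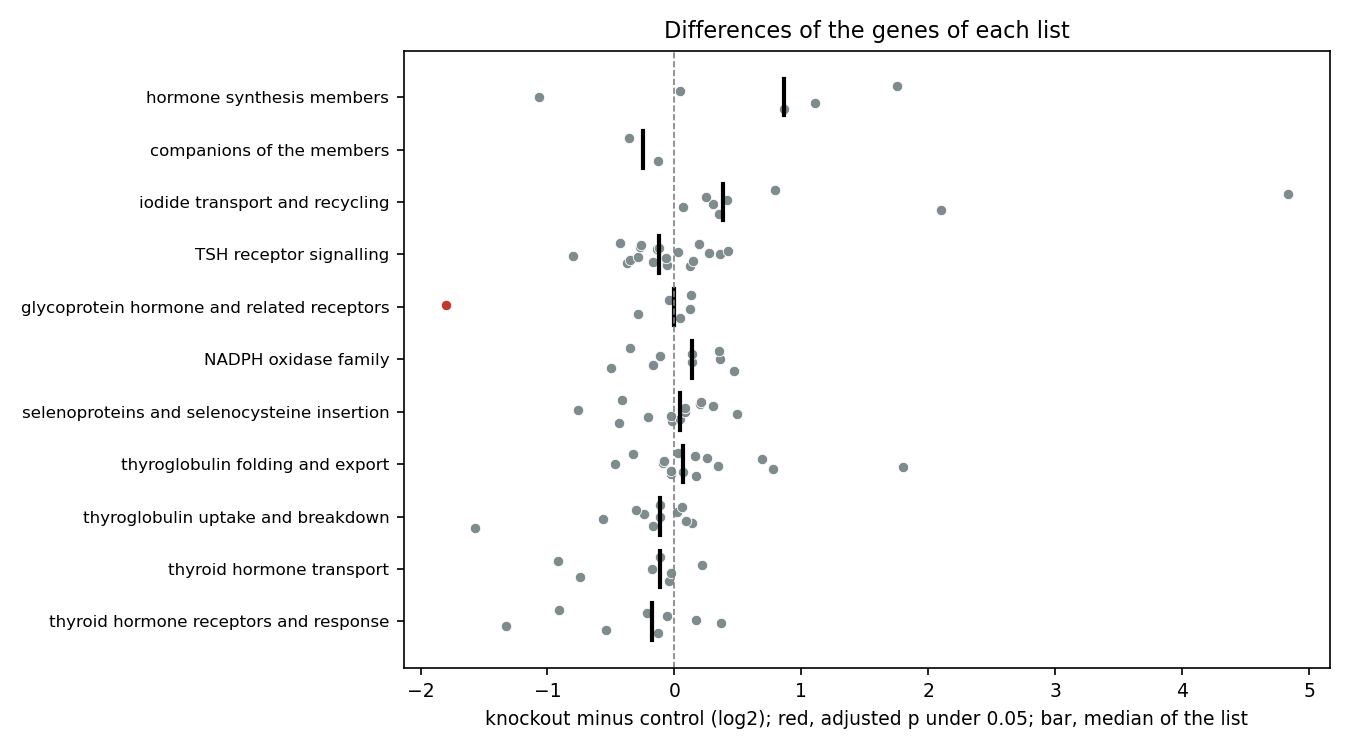
Knockout minus control (log2) for every measured gene of the 5-gene set and 10 pathway lists, with a black bar at each list's median and red for an adjusted p under 0.05. The single red point is Lgr6 at -1.80, and the point at 4.83 is Slc5a5.

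Other tissue was present in the lobes and differed between arrays, and some of it can express these genes. Parathyroid markers, of which 2 were measured, varied most. Pth read 18.24, 19.68 and 17.02 in controls and 3.56, 18.61 and 10.06 in knockouts, and Casr, the calcium-sensing receptor, read 11.03, 13.49 and 9.56 against 8.44, 10.53 and 9.05. Their summed level lay between 17.03 and 19.70 in controls and between 8.49 and 18.62 in knockouts. Knockout 2, the knockout with the highest parathyroid sum, was also the knockout nearest the controls for Tshr and Duox1 and farthest for Duoxa2. The C cell sum followed it through Chga, which both cell types make, with Ret differing by -0.59. The parathyroid covariate fit gave differences of -0.06 for Tg and 1.25 for Dio1, beside those given with Tshr, Duox1 and Duoxa2.

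Airway epithelium carries dual oxidases, and fat cells carry the thyrotropin receptor. All 8 airway markers had negative differences, 5 with all knockouts below all controls, against 8.78% of all probe sets. By limma 0 of the 8 passed the threshold (6 unadjusted). The summed airway level was 20.00 to 21.01 in controls and 19.48 to 19.55 in knockouts, led by Bpifa1 and Scgb3a1. With the airway covariate the Duox1 difference was 1.00 (SE 0.64, limma adjusted p = 0.805). Because the airway levels do not overlap between groups, that fit cannot tell airway content from genotype. All 7 adipocyte markers, led by Fabp4 and Pnpla2, had negative differences with overlapping sums, 16.27 to 17.57 in controls and 15.94 to 16.69 in knockouts. The part of fat in the Tshr values was not tested. Squamous epithelium, led by Krt4 and Krt13, was abundant, with sums of 20.82 to 20.88 in controls and 21.05 to 21.24 in knockouts, which do not overlap. Krt4 read 19.88 to 19.93, at or near the highest value of any probe set. Of the 7 squamous markers 6 had positive differences and 1, Krt14, a negative one (-0.45). Sprr3 differed by 1.15 and Dsc3 by 1.10, both without overlap (limma adjusted p of 0.0907 and 0.132). Knockout 3, the highest array for Duox1, was also the highest for Krt5, Krt13, Sprr3, Dsc3 and Trp63. It was not the highest for Krt14, and for Krt4 it tied with other arrays. The part of squamous epithelium in the Duox1 values was not tested.

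Liver and kidney, where Dio1 is abundant, left little trace: Alb, Apoa1, Apoa2, Ttr and Umod averaged between 2.48 and 3.93 in both groups. Nphs1 alone of that list stood higher, at 8.64 to 9.22. Skeletal muscle sums, led by Acta1 and Myh4, were 21.20 to 21.30 in controls and 20.63 to 21.14 in knockouts, without overlap. Fibroblast (Dcn, Lum), macrophage (Mrc1, C1qa) and endothelial (Eng, Cdh5) sums overlapped between groups, and each was lowest in knockout 3. Mast cell sums, led by Kit and Cpa3, were 10.78 to 10.97 in controls and 10.66 to 11.72 in knockouts. Red cell genes (Alas2, Slc4a1) summed to 7.79 to 8.32 and 6.94 to 7.87, and T cell genes (Cd3e, Cd3d) to 5.94 to 6.38 and 5.88 to 5.95. Of 74 markers outside the follicular list, 0 passed by limma and 20 had an unadjusted p under 0.05, against 0.338% and 12.7% of all probe sets. The part these tissues play in the values of the 5 genes was not tested.

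**Figure D5:**
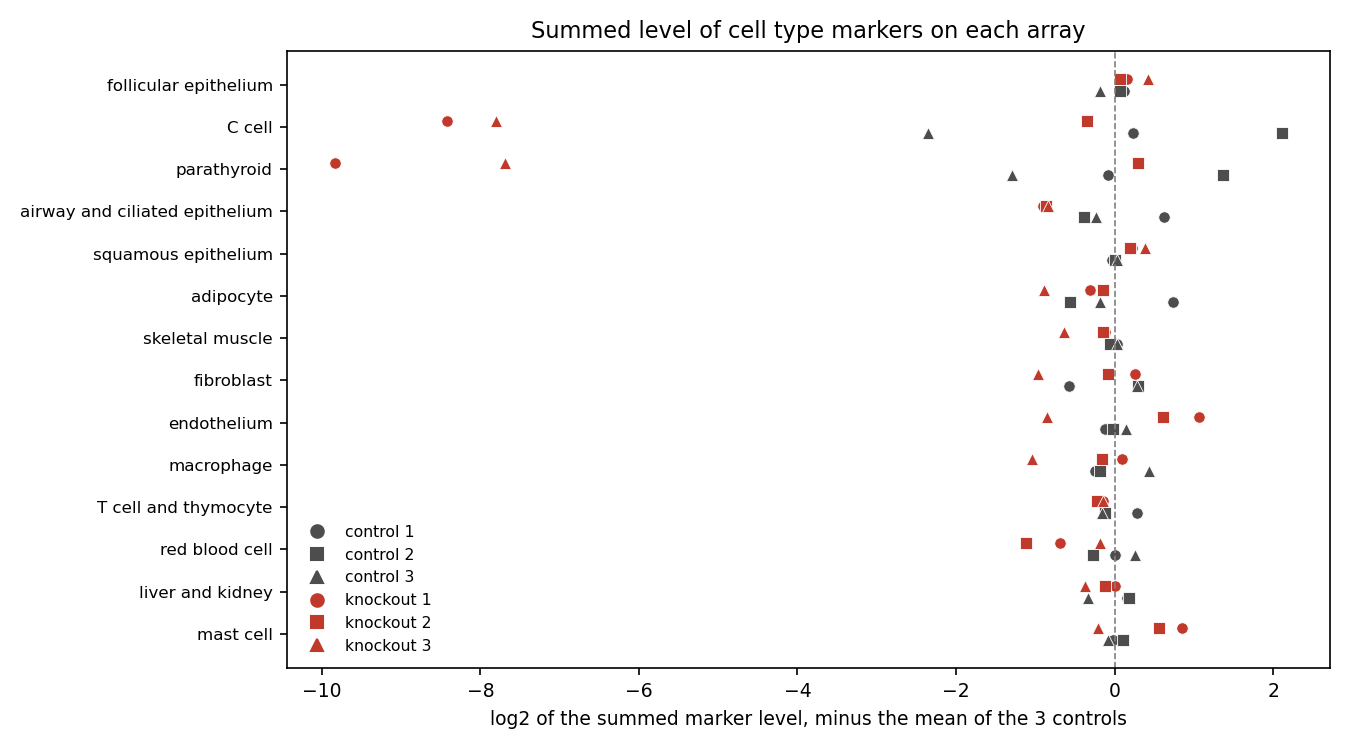
Log2 of the summed level of each marker list on each array, as a difference from the mean of the 3 controls, with controls in grey, knockouts in red and a symbol for each replicate number. Parathyroid and C cell sums are far lower in knockouts 1 and 3 than on the other arrays, and airway sums are lower in all knockouts. Follicular sums, which Cdh1 carries, differ little and hide unequal members. Of the 9 markers 5 had positive differences, among them Hhex (2.46), Cdh16 (1.88) and Pax8 (1.52), and 4 negative.

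As a check of the labels, Foxe1 fell by 4.19 (SE 0.22, limma adjusted p = 0.000442), from 7.28 ± 0.29 to 3.08 ± 0.23 (SD, n = 3 each), with all knockouts below all controls. Array medians lay between 5.62 and 5.69, and 3 arrays a group limit the precision of each value. The 5 genes themselves stood above the lower quartile of every array, 3.49 to 3.6, on all 6 arrays.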

How the data were processed

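RNA from 1 frozen lobe a mouse, with an integrity number of at least 7, was labelled from 250 ng and put on 6 Affymetrix arrays, per the labels' protocols. The deposited values are log2 expression per probe set, and the submitters' processing notes list RMA and Affymetrix Expression Console. Versions, settings and genome build: not given in the sources used here. RMA ordinarily equalises the arrays, which removes any shift common to most transcripts, and no detection calls were used. Of 22206 probe sets, 19572 carry 1 gene symbol in the platform annotation of 2019, all matched to RefSeq (GRCm38.p6), and 2634 are unnamed here. A gene was read through its brightest probe set.

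All probe sets were tested in R 4.3.3 by limma 3.58.1 (lmFit, then eBayes, on group alone, two-sided, Benjamini-Hochberg over all probe sets), a step tested on simulated data. Pairs of genes were tested by exact permutation. The 10 pathway lists and 14 marker lists hold 208 genes, of which 186 were measured. The 5 genes and these lists were chosen with earlier results of these data known. The text names the 5 genes and the measured companions Dio2 and Dio3, list genes past the threshold or with the 3 largest differences, the 2 brightest of each marker list, the 3 nearest profiles, and Foxe1. Further list genes were named after their values were seen. Other settings were renewed quantile normalization, median or follicular centring, other variance models, array weights, filters, blocks and covariates, and leaving out each array. The parathyroid and airway covariates and the interaction were chosen after seeing the data. Python 3.11.15 and matplotlib 3.10.9 served for the remaining steps and the figures.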

Additional observations from a re-analysis of the deposited data

How the results depend on the processing

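Tshr, Duox1 and Dio1 had positive and Duoxa2 negative differences in the 22 alternatives run for each, but several of these alter only the test, and leaving out an array cannot turn Tshr or Duox1, whose groups do not overlap. Of 100 limma or t fits of the 5 genes under other settings, 1 passed the threshold: Duoxa2 at -1.48 (adjusted p = 0.022) relative to the follicular marker mean, a fit in which every probe set takes on the same array shifts and the 5 genes share an SE of 0.41. Tshr there had an adjusted p of 0.0502, and over its alternatives 0.0502 to 0.733. Tg was negative in 4 of 22: -0.37 relative to follicular markers, -0.06 with the parathyroid covariate, and from -0.098 to 0.20 without 1 array. With the replicate number as a block, Tshr stayed at 1.75 (adjusted p = 0.189) and 63 probe sets passed, and no call on the 5 genes changed; same-numbered arrays did not deviate together (r of -0.01, 0.08 and 0.02), so the numbers were not taken as pairs. The count of pairs apart was 5 to 7 in its 8 alternatives, against 5; removing arrays, as nearly all of these do, cannot lower it. The count of 75 probe sets was 531 relative to follicular markers (106 higher and 425 lower, against 56 and 19), 118 with robust variance and trend, 0 by the ordinary t statistic (2208 at an unadjusted p under 0.05), 6 with Y-linked signal alone, 2 with the parathyroid and 0 with the airway covariate (1680 and 1598 unadjusted), and lower without any of the 6 arrays, 2 to 43 (2 without knockout 1, 43 without control 1). The causes were not tested. Without detection calls, signal over background limits each probe set to an unknown degree.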
